A study of Homo sapiens with 10 samples.

Results

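Of the 249 protein-coding genes on human chromosome 19 whose GENCODE symbol starts with ZNF, 243 had a row in the count table of 55841 gene identifiers, and these 243 zinc finger genes are described here in human embryonic stem cells. The labels name the cells HES9, an established line grown in mTESR1 medium on matrigel, whereas the study's methods describe WA09. General libraries came from the unsorted culture. HHH libraries came from cells sorted by flow cytometry for the highest levels of the surface antigens EPCAM, GCTM2 and CD9, so the general population also contained cells of the sorted kind. Batch 1 held 2 libraries of each population and batch 2 held 3 of each, 10 in all. Protein kinase C inhibitors are named in the series description but in the label of no library. The labels do not say whether replicates were separate cultures, so p-values measure only the spread between these libraries.

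Zinc finger proteins of this family bind DNA through tandem fingers, each a short loop held around a zinc ion by a pair of cysteines and a pair of histidines. Most of the proteins encoded on chromosome 19 also carry a KRAB domain, which recruits the corepressor TRIM28 and through it the histone methyltransferase SETDB1 and HP1 proteins, and many silence transposable elements in pluripotent cells. The genes arose by repeated tandem duplication and lie in clusters, so neighbours are often close copies of each other.

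The fingers are shown because the 7 members whose difference between populations changed with the batch all lay among the 22 tested members richest in GC, although most of those 22 did not pass that test. The segments below are the foremost finger of the usual spacing (21 codons) with the 7 codons that follow it, read from the coding sequence of the GENCODE 44 canonical transcript, with the codons of the cysteines and histidines in capitals. ZNF525 and ZNF799 were the members that passed the test over both batches, ZNF91 and ZNF93 are repressors of the SVA and LINE-1 retroelements, and the last 4 passed the test of a difference between the batches.
ZNF525: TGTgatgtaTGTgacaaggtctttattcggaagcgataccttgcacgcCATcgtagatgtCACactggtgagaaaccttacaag
ZNF799: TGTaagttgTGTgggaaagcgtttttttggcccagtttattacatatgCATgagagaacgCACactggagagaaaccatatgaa
ZNF91: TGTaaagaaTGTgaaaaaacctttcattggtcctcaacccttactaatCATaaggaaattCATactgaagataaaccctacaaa
ZNF93: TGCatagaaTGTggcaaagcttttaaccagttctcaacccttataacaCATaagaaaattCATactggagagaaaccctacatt
ZNF579: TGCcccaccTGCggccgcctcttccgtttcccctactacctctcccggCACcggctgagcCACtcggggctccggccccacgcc
ZNF787: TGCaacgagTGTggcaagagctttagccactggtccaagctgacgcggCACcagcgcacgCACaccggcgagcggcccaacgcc
ZNF628: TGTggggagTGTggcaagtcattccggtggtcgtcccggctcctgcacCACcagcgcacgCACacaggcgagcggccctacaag
ZNF865: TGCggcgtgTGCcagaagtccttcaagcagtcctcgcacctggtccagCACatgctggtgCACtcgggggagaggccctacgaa
These coding exon segments lie in GRCh38 at chr19:53381312-53381395 (+), chr19:12391720-12391803 (-), chr19:23362262-23362345 (-), chr19:19933478-19933561 (+), chr19:55579421-55579504 (-), chr19:56088887-56088970 (-), chr19:55481305-55481388 (+) and chr19:55614294-55614377 (+), in the order given. All 8 encode the same arrangement of cysteines and histidines, by which they were picked. The GC content of the segment was 32.1% in ZNF91, 35.7% in ZNF93, 40.5% in ZNF799 and 45.2% in ZNF525, against 63.1% in ZNF865, 66.7% in ZNF628 and in ZNF787 and 73.8% in ZNF579. At the third codon position it was 25% in ZNF91 and 96.4% in ZNF579 and ZNF865.

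As a family the genes were AT-rich for coding genes. Median exonic GC content was 43.2% in the 227 members tested (33.9% to 70.9%) and 48.3% in the 14975 protein-coding genes tested. A pattern for the KRAB domain was found in 205 of the 243 translated canonical coding sequences. Tested members with the pattern had a median exonic GC content of 42.8% and, at the third codon position, 37.8%. The 34 tested members without it had 59.3% and 74.0%. The number of fingers had a median of 13 with the pattern and 9.5 without it.

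Transcripts of most members were detected in both populations. Mean levels of at least 1 CPM (a counts-per-million value after TMM scaling) were reached by 222 members in the general population and 223 in HHH. Per exonic kilobase (RPKM), the median of the tested members was 2.51, and that of all tested protein-coding genes was 3.43. The 5 highest per length, as means over the 10 libraries, were ZNF146 at 51.6 RPKM, ZNF121 at 33.8, ZNF724 at 28.3, ZNF581 at 21.5 and ZNF90 at 18.8. ZNF146 encodes a protein made almost entirely of fingers, without a KRAB domain. Of the windows of 75 bases in the ZNF724 transcript, 51.9% also occur in transcripts of another gene, so its level is uncertain. The 16 members that were not tested had at most 17 counts in any library, and 8 of them lie in the cluster at 19.7 to 24.1 Mb.

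Libraries held 47242595 to 78503395 counts, and members took 0.386% to 0.578% of them. Markers of pluripotent cells were at 1 CPM or more for 9 of 9 genes in both populations. Of the 9 pluripotency markers, NANOG (log2 fold change 0.44, adjusted p = 0.00572) and EPCAM (0.41, adjusted p = 0.00645) rose in HHH, and SOX2 (-0.26, adjusted p = 0.0375) fell. EPCAM is itself a sort antigen, so its rise is not separate from the selection of the cells. The call of SOX2 was lost with the replicate block (adjusted p = 0.0773) and kept in 2 of 10 fits with a library left out, and the block brought in TDGF1 (0.0342 in place of 0.0749) and the sort antigen CD9 (0.0186 in place of 0.195), both higher in HHH. Neural markers summed to 25.1 to 30.4 CPM in general and 25.7 to 47.7 CPM in HHH libraries, and mesoderm and endoderm markers to 0.766 to 1.48 and 0.937 to 2.59 CPM. Most of the neural sum was SOX3, at 32.1 and 40.4 CPM in HHH of batch 1. FOXA2 had 1.67 and 1.37 CPM in HHH of batch 1, against 0.107 and 0.906 in general. It was tested in batch 1 alone, did not pass (adjusted p = 0.359), and had at most 0.206 CPM in the libraries of batch 2. MIXL1, the only marker of this list tested over both batches, did not pass (log2 fold change 0.33, adjusted p = 0.363). EOMES, GSC, SOX17, GATA4 and GATA6 were not tested. TBXT had means of 0.350 CPM in general and 0.102 in HHH. It was tested in batch 2 alone and fell there (log2 fold change -1.84, adjusted p = 0.00269). Of the neural markers SOX3 rose and SOX1 and ZIC1 fell, but SOX3 was lost with the block (adjusted p = 0.0822 in place of 0.0350), and leaving out 1 library kept SOX3 in 3, SOX1 in 2 and ZIC1 in 10 of 10 fits. Fibroblast markers summed to 262 to 282 and 292 to 346 CPM, mostly from THY1 and COL1A2, while LUM and DCN were at or near 0, and THY1 rose and COL1A1 fell (COL1A2 was at an adjusted p of 0.106, and of 0.0281 with the block). The part of these cells in any member's value was not tested. In bulk RNA, fewer cells of a type and less RNA per cell cannot be told apart.

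Over both batches, the chromosome 19 zinc finger genes were nearly level between the sorted and unsorted cells. None of the 227 tested members was called, that is, passed an adjusted p of 0.05 with a change over 1.5-fold in edgeR's quasi-likelihood test with batch as a term. The share called among all 23552 genes tested was 2.98%, with 150 (0.637%) higher and 551 (2.34%) lower in HHH. An unadjusted p under 0.05 was reached by 11.5% of the members, 21 higher and 5 lower, against 20.9% of all genes, and DESeq2 called no member either. The median log2 fold change was 0.04, with quartiles of -0.03 and 0.11, beside 0.02 over all genes (-0.14 and 0.14). Of the members, 67.8% had a positive sign, as did 53.0% of all genes. The 95% interval lay wholly inside 1.5-fold in either direction for 219 of 227 members (96.5%), compared with 79.6% of protein-coding genes. The 8 exceptions were ZNF296, ZNF404, ZNF536, ZNF540, ZNF579, ZNF585B, ZNF865 and ZNF888. The 895 other protein-coding genes of chromosome 19 tested had a median of -0.03 with 37 called (7 higher and 30 lower), and the 233 ZNF genes of other chromosomes a median of 0.02 with 5 called, all lower.

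**Figure D1:**
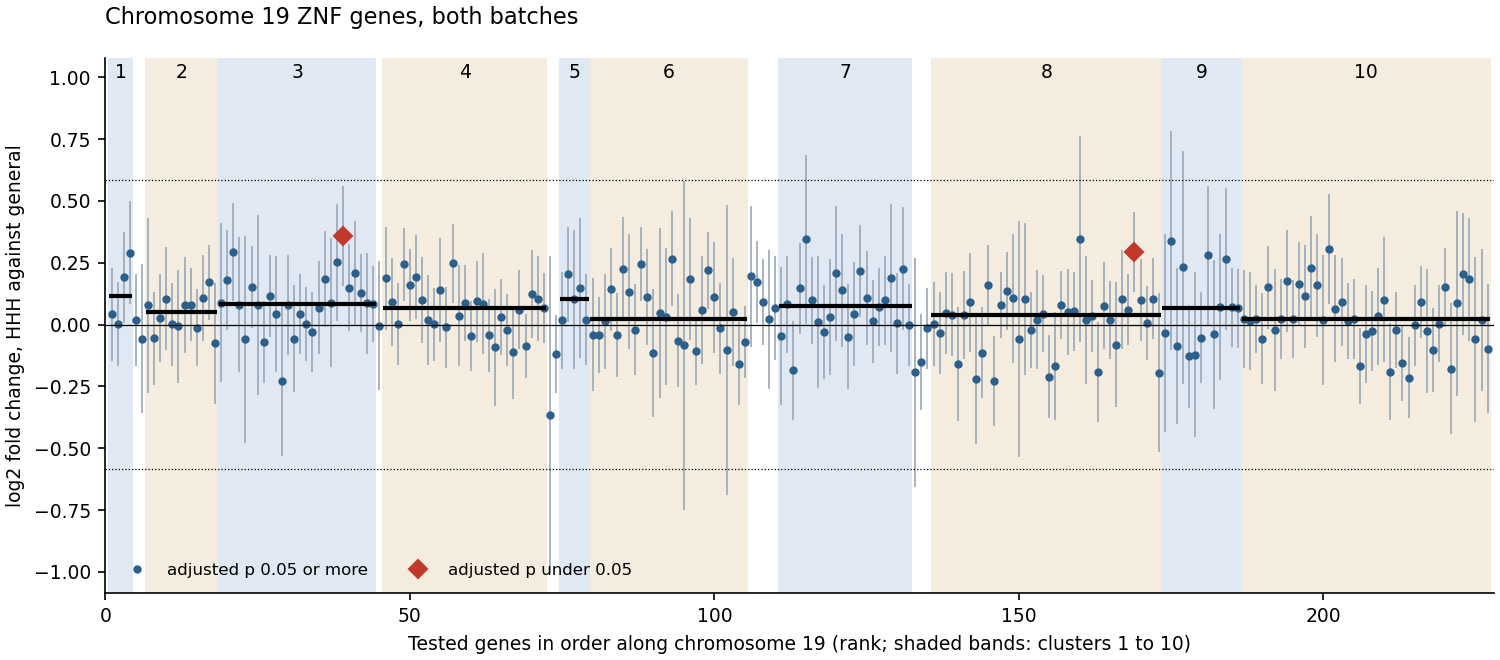
Log2 fold change of HHH against general over both batches (y axis) for the 227 tested members in order along chromosome 19 (x axis, rank), with 95% intervals as vertical lines, clusters as shaded bands, cluster medians as black bars and dotted lines at 1.5-fold. No point lies beyond the dotted lines, and the 2 red diamonds mark ZNF799 and ZNF525.

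Without a limit on fold change, 2 members rose in HHH and none fell at an adjusted p of 0.05, where 5.83% of all genes passed (1.94% higher and 3.89% lower). ZNF525 (chr19:53365693-53392217, plus strand), a KRAB gene with 8 fingers, had 63.0 and 75.8 CPM in the general libraries of batch 1 and 90.8 and 77.3 in HHH. In batch 2 it had 73.0, 67.4 and 64.1 CPM in general and 87.4, 83.3 and 82.2 in HHH. The populations did not overlap in either batch. Its log2 fold change was 0.29 (SE 0.08), with an adjusted p of 0.0331. In batch 2 alone it passed as well (0.30, adjusted p = 0.0302), a call kept in 1 of 6 fits with a library left out, that without HHH batch 2 replicate 3.

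ZNF799 (chr19:12390016-12401271, minus strand), a KRAB gene with 15 fingers, had 5.59 and 5.97 CPM in general and 8.43 and 7.97 in HHH in batch 1. In batch 2 it had 5.92, 6.14 and 5.65 in general and 7.04, 6.398 and 7.81 in HHH, again without overlap. The log2 fold change was 0.36 (SE 0.09, adjusted p = 0.0375), and 36.7% of the windows of its transcript occur in another gene, so its level is uncertain. A fit blocked on the replicate number left 1 member past the adjusted p (2.32% of all genes rose there), because the adjusted p of ZNF799 became 0.104 while that of ZNF525 was 0.0361. Both calls sat close to the threshold. Leaving out 1 library kept the call of ZNF525 in 3 of 10 fits (without general batch 1 replicate 2, HHH batch 1 replicate 3 or HHH batch 2 replicate 3) and that of ZNF799 in 2 of 10 (without HHH batch 1 replicate 3 or HHH batch 2 replicate 2), and the highest adjusted p was 0.0973 and 0.0921.

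Next in size among members that were higher in both batches were ZNF888 (log2 fold change 0.35, SE 0.19), ZNF416 (0.31, SE 0.10), ZNF823 (0.29, SE 0.09) and ZNF77 (0.29, SE 0.10), none of which passed. At the other end were ZNF433 (-0.23, SE 0.14), ZNF836 (-0.23, SE 0.09), ZNF432 (-0.22, SE 0.12), ZNF418 (-0.21, SE 0.08), ZNF611 (-0.21, SE 0.08), which binds SVA elements, and the imprinted gene ZNF331 (-0.20, SE 0.15), which also did not pass. Adjusted p ranged from 0.0795 for ZNF823 to 0.490 for ZNF331 among these 10. In both batches without overlap, HHH was higher for 12 members (5.29%, against 3.93% of all genes) and lower for 5 (2.20%, against 5.42%). The members that were lower this way were ZNF91, ZNF154, ZNF418, ZNF836 and ZNF875, named after their values were seen.

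Among genes with known roles, most of them at retroelements, no member passed and each 95% interval lay within 1.5-fold. ZNF91, which silences SVA elements, had 55.7 and 56.1 CPM in general and 49.0 and 54.5 in HHH in batch 1. In batch 2 it had 66.1, 66.8 and 63.9 in general and 63.8, 62.2 and 61.5 in HHH, so HHH was the lower population in both batches, by a log2 fold change of -0.09 (95% interval -0.22 to 0.04, adjusted p = 0.448). ZNF93, which silences LINE-1 elements, had 76.4 and 83.7 CPM in general and 94.97 and 87.3 in HHH in batch 1, and 70.6, 78.5 and 67.1 against 80.6, 77.3 and 80.6 in batch 2. The populations of ZNF93 overlapped in batch 2, and the log2 fold change was 0.16 (0.01 to 0.30, adjusted p = 0.196). ZNF417 and ZNF587, near-identical repressors of HERV-K, had -0.15 (-0.31 to -0.0016) and -0.02 (-0.18 to 0.13). Windows shared with another gene made up 29.3% of the ZNF417 and 18.6% of the ZNF587 transcript. The remaining intervals were -0.15 to 0.16 for ZNF274, which brings SETDB1 to zinc finger genes themselves, -0.17 to 0.25 for the transcriptional repressor ZNF224, -0.12 to 0.21 for ZNF649 and -0.18 to 0.13 for ZNF808. Levels were 18.98 ± 1.65 CPM in general and 19.02 ± 0.731 in HHH for ZNF274 and 20.9 ± 2.43 against 20.6 ± 2.80 CPM for ZNF808 (SD, n = 5).

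Among cofactor and heterochromatin genes, TRIM24 and RIF1 were lower in HHH. TRIM28 and SETDB1, through which KRAB proteins act, did not pass. Of 38 listed cofactor and heterochromatin genes, 37 were tested, and none rose and 2 fell at an adjusted p of 0.05. Among all genes 5.83% passed (1.94% higher and 3.89% lower), so the list passed at about the share of all genes. The median log2 fold change of the list was -0.03. TRIM28 had 697 ± 78.9 CPM in general and 771 ± 203 in HHH (SD, n = 5), with HHH the higher in batch 1 and the populations overlapping in batch 2, and its log2 fold change was 0.11 (adjusted p = 0.559). SETDB1 had 61.8 ± 3.33 and 59.0 ± 4.04 CPM (-0.07, adjusted p = 0.584). TRIM24, a bromodomain relative of TRIM28, had 84.9 and 88.8 CPM in general and 67.4 and 72.8 in HHH in batch 1. In batch 2 it had 162, 181 and 167 in general and 96.8, 98.4 and 90.7 in HHH. It fell by 0.63 on the log2 scale (adjusted p = 0.00101), and the call remained in all 10 fits with 1 library left out. RIF1, which acts in heterochromatin and replication timing, fell by 0.26 (adjusted p = 0.0428, and 0.0946 with the replicate block). Its call remained in 2 of the 10 such fits, and the highest adjusted p was 0.140. The block brought CHD3, a chromatin remodeller of the NuRD complex, to an adjusted p of 0.00239 from 0.0910 (log2 fold change -0.62 with the block and -0.46 without). It brought ATRX, a chromatin remodeller at repeats, to 0.0479 from 0.0866 (-0.34 and -0.29). Batch 1 enters the block with 1 pair of libraries. In batch 1 alone and batch 2 alone CHD3 had -0.23 and -0.62, and ATRX -0.35 and -0.27.

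Whether the family answered to the sort alike in the 2 batches was tested by an interaction of batch and population. Of the 227 members, 7 passed at an adjusted p of 0.05 (3.08%), and in all 7 the difference of HHH from general was more negative in batch 2. Among all genes 0.777% passed (13 genes in the positive direction and 170, or 0.722%, in the negative), and among the other protein-coding genes of chromosome 19, whose median GC content was 59.9%, 4.02% passed. The 7 were ZNF579, ZNF628, ZNF787, ZNF358, ZNF574, ZNF865 and ZNF837. None has the KRAB pattern, and all lie between 60.5% and 70.9% exonic GC, in the highest of 5 GC classes of equal size made from all tested genes. The pattern is rare in that class, with 2 of its 22 members, against 193 of the 227 tested members. ZNF579, ZNF787, ZNF628 and ZNF865 lie in the same cluster.

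ZNF579 (chr19:55576774-55580848, minus strand), with 8 fingers, had 6.53 and 8.30 CPM in general and 16.7 and 16.8 in HHH in batch 1. In batch 2 it had 7.74, 8.72 and 9.22 in general and 7.49, 7.57 and 6.88 in HHH. The order of the populations thus turned between the batches without overlap in either. It was called in batch 1 alone (log2 fold change 1.17, SE 0.16, adjusted p = 0.0212) and not in batch 2 (-0.24, SE 0.11, adjusted p = 0.154), and the interaction was -1.41 (SE 0.18, adjusted p = 0.00401).

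ZNF787 (chr19:56087366-56121295, minus strand), with 7 fingers, had 24.0 and 25.8 CPM in general and 42.6 and 43.0 in HHH in batch 1. In batch 2 it had 22.1, 25.3 and 21.8 against 22.6, 23.3 and 20.5 CPM. The 2 HHH libraries of batch 1 stood above the other 8, which overlapped. The call in batch 1 (0.78, SE 0.12, adjusted p = 0.0289) and that of ZNF579 were both lost without HHH batch 1 replicate 2 (adjusted p = 0.0941 and 0.0759). Of all 23720 genes tested in batch 1, 0.573% were called, and of the 225 members these 2 (ZNF787 and ZNF579).

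ZNF628 (chr19:55476617-55484487, plus strand), with 16 fingers, had 3.23 and 3.35 CPM in general and 5.25 and 5.47 in HHH in batch 1, and 4.46, 4.63 and 5.04 against 3.33, 3.49 and 3.02 in batch 2. ZNF358 (chr19:7515292-7521025, plus strand), with 9 fingers, had 17.3 and 18.6 against 24.5 and 26.0 CPM in batch 1. In batch 2 ZNF358 had 22.1, 25.9 and 25.5 against 18.7, 19.7 and 16.7 CPM. For both genes the populations were apart in each batch and in opposite order. In batch 2 alone their log2 fold changes were -0.53 (adjusted p = 0.0152) and -0.43 (adjusted p = 0.0133), at the adjusted p but under the fold limit.

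ZNF574 had 20.3 and 21.2 CPM in general and 28.6 and 30.3 in HHH in batch 1, and 20.9, 22.9 and 22.7 against 19.1, 19.2 and 15.5 in batch 2 (log2 fold change 0.50 and -0.31). ZNF865 had 1.92 and 1.98 against 3.52 and 4.56 CPM in batch 1 and 3.82, 2.70 and 4.35 against 3.11, 2.89 and 2.95 in batch 2 (1.04 and -0.29). ZNF837 had 2.19 and 2.30 against 3.39 and 3.98 CPM in batch 1 and 2.62, 3.11 and 3.03 against 2.27, 2.46 and 2.25 in batch 2 (0.71 and -0.34). HHH was above general without overlap in batch 1 in all 3, and below it without overlap in batch 2 in ZNF574 and ZNF837, while the populations of ZNF865 overlapped there. These 3 passed in neither batch alone. With the replicate block, 10 members (15.5% of all genes) passed the adjusted p in batch 2 in place of 8: ZNF574 (adjusted p = 0.0444 in place of 0.0550), ZNF428 (0.0455 in place of 0.0625) and ZNF497 (0.0471 in place of 0.0874), all lower in HHH, came in, and ZNF607 (0.0560 in place of 0.0498) went out. Leaving out 1 library kept the interaction of ZNF579 in 10 of 10 fits, of ZNF787 in 9 and of ZNF628 and ZNF358 in 8, but of ZNF574 in 6, of ZNF865 in 2 and of ZNF837 in 1. Of the 7, only 1 was kept without general batch 1 replicate 1, 2 without general batch 2 replicate 3 and 4 without HHH batch 1 replicate 3.

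**Figure D2:**
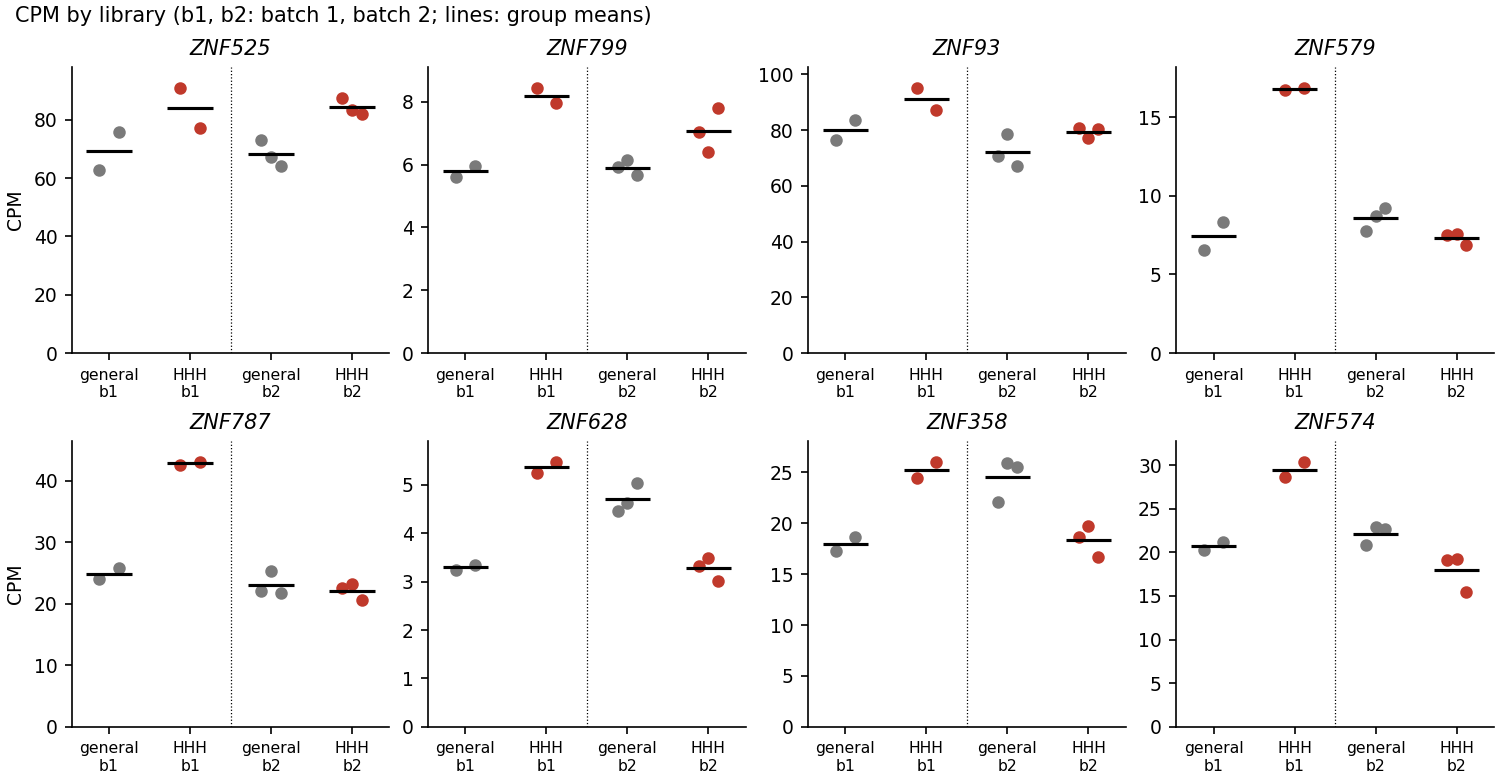
CPM of 8 members (y axis, from 0) in each library, general in grey and HHH in red, batch 1 left and batch 2 right of the dotted line, with group means as bars. ZNF525 and ZNF799 were higher in HHH in both batches, whereas ZNF579, ZNF628, ZNF358 and ZNF574 were higher in HHH in batch 1 and lower in batch 2.

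The single member called in batch 2 was ZNF296 (chr19:45071500-45076478, minus strand; 67.4% GC), which in mouse is linked to reprogramming. It had 2.22, 2.21 and 2.77 CPM in general and 1.75, 1.68 and 1.31 in HHH (log2 fold change -0.61, SE 0.17, adjusted p = 0.0345), while in batch 1 general had 1.10 and 0.771 and HHH 1.61 and 1.12. The share called among all 24025 genes tested in batch 2 was 4.9%, and 228 members were tested. The call was lost without HHH batch 2 replicate 2 or 3 or general batch 2 replicate 1 or 3 (adjusted p = 0.0572, 0.112, 0.0608 and 0.140). With no fold limit 8 members passed in batch 2, 3 higher and 5 lower, and 13.2% of all genes (5.13% higher and 8.05% lower). Beside ZNF296, ZNF628, ZNF358 and ZNF525 these were ZNF101 (0.38), ZNF682 (0.27), ZNF607 (-0.27) and ZNF814 (-0.32), named after their values were seen. Of the 8, leaving out 1 library kept between 1 (without general batch 2 replicate 3) and 6 (without HHH batch 2 replicate 3), and 2 were kept without general batch 2 replicate 1, 3 without HHH batch 2 replicate 2, 4 without general batch 2 replicate 2 and 5 without HHH batch 2 replicate 1.

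Exonic GC content moved with these differences, in opposite directions in the 2 batches. Over the members, Spearman's rho of GC content with the log2 fold change was 0.24 in batch 1 (n = 225, Pearson 0.50) and -0.48 in batch 2 (n = 227, Pearson -0.65), and over all genes 0.23 and -0.34. Genes are not independent replicates and share their libraries, so these are descriptions. The 22 members in the highest class (above 57.0% GC) had a median log2 fold change of 0.38 in batch 1 and -0.27 in batch 2, and all 4428 genes of that class 0.12 and -0.18. In the lowest class (66 members) the medians were -0.01 and 0.13. The interaction was passed by 7 of the 22 members (31.8%) and by 2.80% of the genes of the same class, and by no member of the other 4 classes. Within that class the median GC content was 63.1% in the members and 60.7% in all its genes, so these shares are not matched for GC content.

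By library, the 32 tested members at 50% GC or more lay at a median of 0.21 and 0.25 log2 units above the general mean in the HHH libraries of batch 1. In HHH of batch 2 they lay at -0.16, -0.16 and -0.25. The 195 members under 50% lay between -0.06 and 0.14 in the 5 HHH libraries. The trend with GC content, as the fitted value at 60% minus that at 40% over all genes, was -0.10 and -0.05 in general against -0.0027 and 0.11 in HHH of batch 1, and 0.08, 0.11 and 0.24 in general against -0.10, -0.04 and -0.26 in HHH of batch 2. The trend therefore differed between populations in each batch, and in opposite directions.

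**Figure D3:**
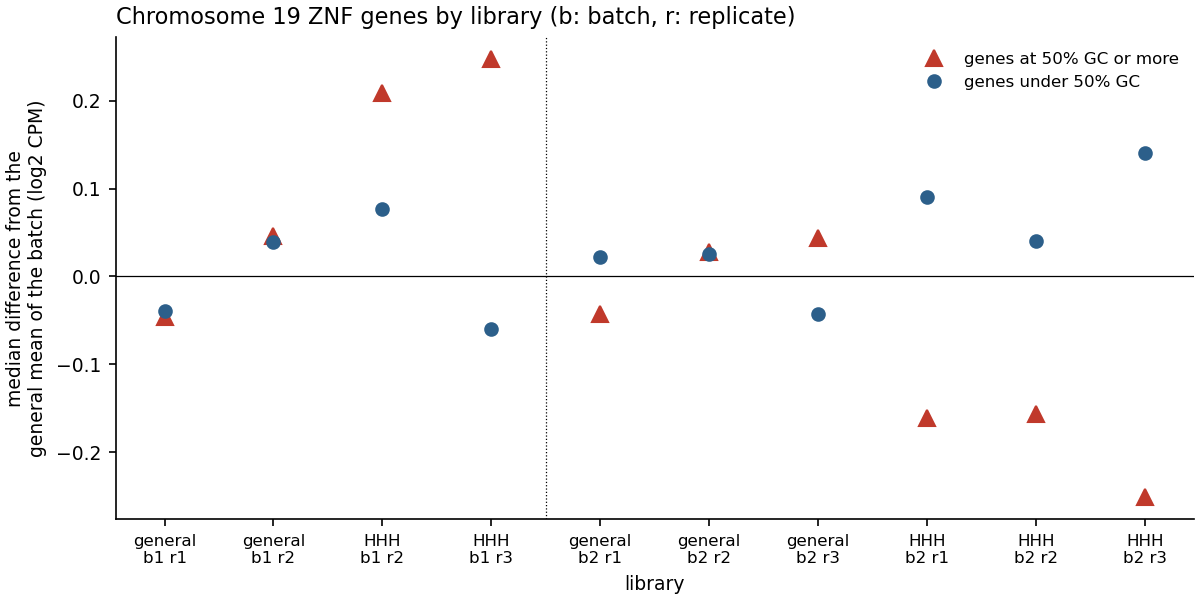
Median difference from the mean of the general libraries of the same batch (y axis, log2 CPM) in each of the 10 libraries (x axis) for members at 50% exonic GC or more (red triangles, 32 genes) and under 50% (blue circles, 195 genes). The triangles of HHH lie at 0.21 and 0.25 in batch 1 and between -0.25 and -0.16 in batch 2.

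When a smooth trend with GC content (a spline fitted over all genes) was removed from each library, no member passed the interaction and 16 genes (0.0679%) did in all. The interaction of ZNF579 was then -0.99 (adjusted p = 0.0527), that of ZNF628 -0.45 (adjusted p = 0.322) and that of ZNF787 -0.39 (adjusted p = 0.297). ZNF579 alone stayed called in batch 1 (0.99, adjusted p = 0.0481), with 0.358% of all genes. No member and 4.02% of all genes were called in batch 2, where the value of ZNF296 was -0.32 (adjusted p = 0.195). Among the 22 members of the highest class, the batch 1 median was still 0.23 beside 0.03 over the genes of that class, and the batch 2 median -0.02 beside 0.03. Over both batches 3 members passed the adjusted p, ZNF799 (0.0289), ZNF525 (0.0409) and ZNF787 (0.0245, log2 fold change 0.35), all higher in HHH and none past 1.5-fold, where 3.42% of all genes rose. Across the 225 members, Pearson's r between the log2 fold changes of the 2 batches, which share no library, was -0.18 as counted and 0.22 with the trend removed. Spearman's rho was -0.0032 and 0.19, so as counted the ranks of the members showed almost no relation between the batches. Whether composition of the RNA or the making of the libraries gave rise to the trend was not tested.

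**Figure D4:**
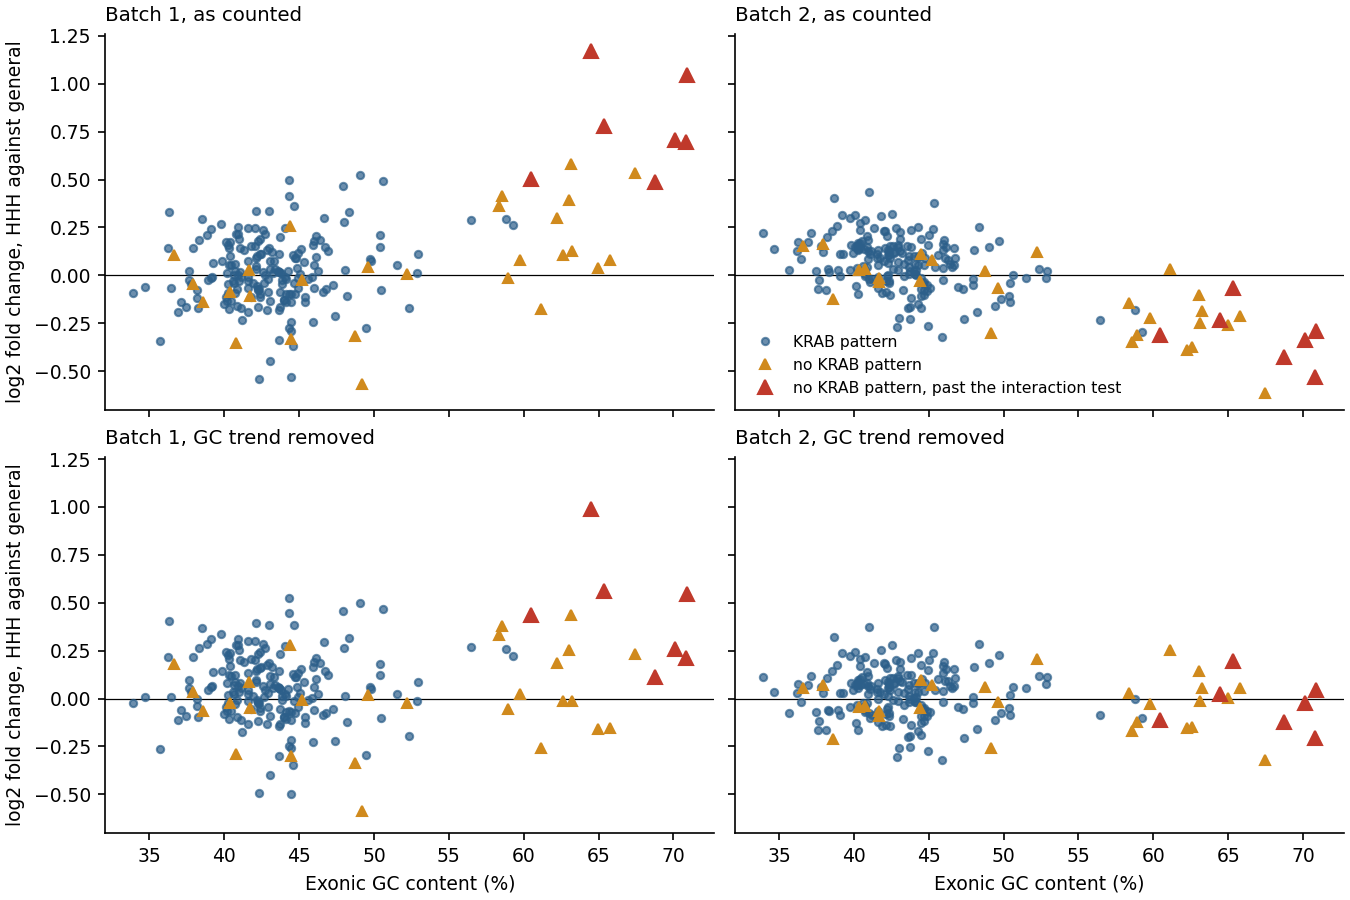
Log2 fold change of HHH against general (y axis) by exonic GC content in percent (x axis) for the tested members, batch 1 left and batch 2 right, as counted above and with the GC trend removed below. Blue circles are members with the KRAB pattern and orange triangles those without it, and the larger red triangles mark the 7 members past the interaction test, which lie above 0 in batch 1 and below 0 in batch 2 as counted.

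By position, members whose starts lay within 500 kb of each other formed 10 clusters of at least 5 genes, holding all but 14 of the 243. As counted, their medians over both batches were all positive, from 0.02 in cluster 10 (57.2 to 58.5 Mb) and cluster 6 (36.2 to 37.8 Mb) to 0.12 in cluster 1 (2.82 to 2.94 Mb, 4 tested genes). With the GC trend removed that of cluster 6 was -0.01. Over all genes 53.0% of the signs were positive. In the largest clusters the positive signs were 26 of 41 genes in cluster 10, 26 of 38 in cluster 8 (51.6 to 53.6 Mb) and 20 of 27 in cluster 4 (19.7 to 24.1 Mb). In cluster 3 (11.5 to 12.6 Mb), which holds ZNF799, ZNF823 and ZNF433, 21 of 26 were positive with a median of 0.08. ZNF525 is in cluster 8, beside ZNF836, ZNF432 and ZNF611, which had the most negative values of a cluster where 26 of 38 values were positive. No cluster held more than 1 member past the adjusted p. The 13 tested members outside clusters had a median of -0.0040.

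Cluster 9 (55.5 to 56.7 Mb) had batch medians further apart than any other cluster. Its median GC content was 63.2%, and 6 of its 16 genes have a KRAB pattern. Its 13 tested genes had a median log2 fold change of 0.29 in batch 1 and -0.21 in batch 2, and 4 of them passed the interaction. Members of the highest GC class, in that cluster or not, had medians of 0.38 and -0.27. With the GC trend removed the medians of cluster 9 were 0.18 and 0.04. Cluster 4, with the lowest median GC content (38.2%), had medians in the other order, -0.04 and 0.13, which became 0.03 and 0.04. Over the 10 clusters the batch 1 medians ran from -0.06 to 0.29 and the batch 2 medians from -0.21 to 0.13.

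**Figure D5:**
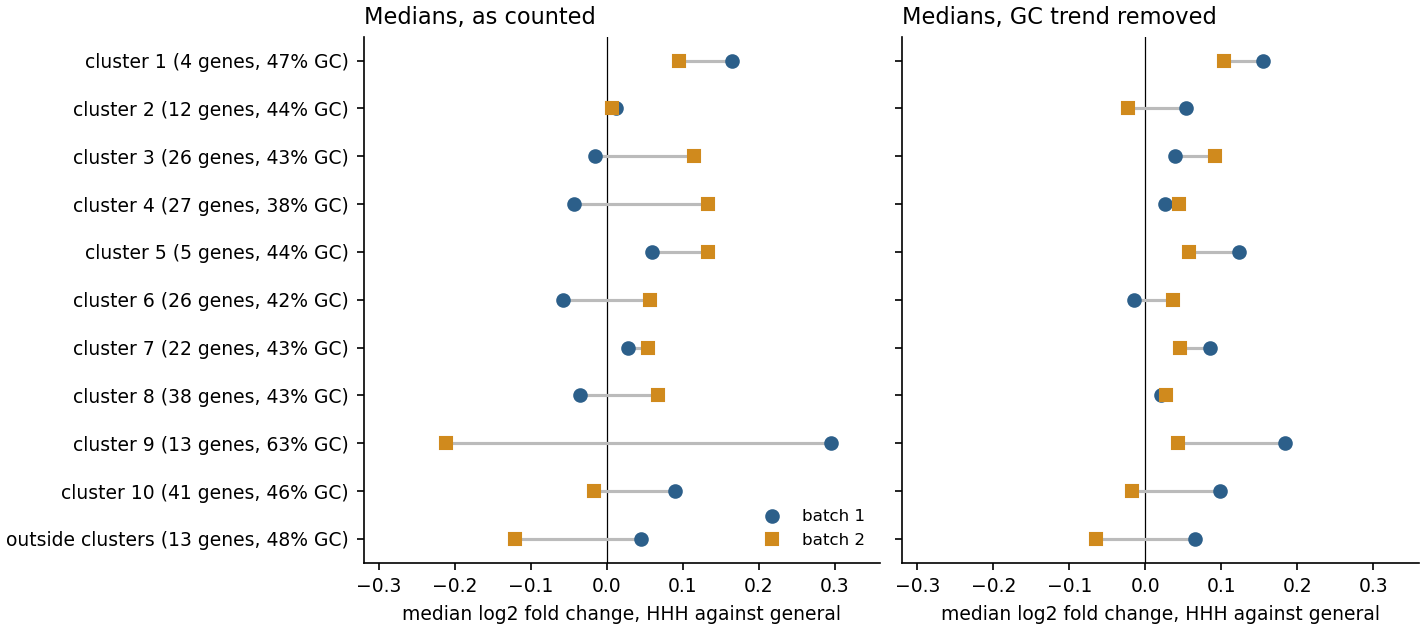
Median log2 fold change of HHH against general (x axis) in batch 1 (circles) and batch 2 (squares) for each cluster and for members outside clusters (y axis, with the number of tested genes and the median exonic GC content), as counted at left and with the GC trend removed at right. In cluster 9 the medians were 0.29 and -0.21 at left and 0.18 and 0.04 at right.

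Members with and without the KRAB pattern gave medians of 0.05 (193 genes) and -0.04 (34 genes) over both batches. In batch 1 the medians were 0.01 and 0.09, and in batch 2 they were 0.08 and -0.16, over members tested in the fit of both batches. With the GC trend removed they were 0.06 and 0.03 in batch 1 and 0.04 and -0.02 in batch 2. Spearman's rho of the number of fingers with the log2 fold change over both batches was 0.05 (n = 227), a description.

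The batches themselves differed more than the populations did, in this family as over all genes. In the same fit, 33 members (14.5%) were called between batch 2 and batch 1, against 21.5% of all genes. Of these members 30 were higher (12.5% of all genes) and 3 lower (8.92% of all genes) in batch 2. Between populations no member and 2.98% of all genes were called. Of the 33, 27 have the KRAB pattern, as do 193 of the 227 tested members, and none of the 33 passed between populations. This comparison was made and its genes were named after their values were seen. ZNF829, in cluster 6, was counted 3, 8, 5 and 4 times in batch 1 and 178 to 213 times per library in batch 2. In CPM it ranged from 0.0460 to 0.134 and from 2.97 to 3.66, with HHH against general at a log2 fold change of 0.05. ZNF404 in cluster 7 had 0.114 to 0.169 CPM in batch 1 and 2.28 to 3.73 CPM in batch 2. ZNF439, ZNF568 and ZNF578 were also over 2-fold higher in batch 2, with log2 differences of 2.29, 1.67 and 1.58. ZNF90, among the highest members per length, had 53.7, 54.5, 68.5 and 58.0 CPM in batch 1 and 139 to 168 CPM in batch 2 (1.37). The members over 2-fold lower in batch 2 were ZNF85 (-1.19) and ZNF626 (-1.18), both in cluster 4 with ZNF90, so neighbours moved in opposite directions. Within batch 2 the populations of ZNF829 overlapped, whereas HHH was above general for ZNF404, and for ZNF85 HHH was above general in both batches. What else differed between the batches is not given in the labels, and its part in these values was not tested.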

How the data were processed

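RNA-seq libraries (TruSeq RNA kit, strand not stated) from the 10 samples were deposited by the authors as raw fragment counts per Ensembl gene. A second table, per the file headers and values a score made of log2 RPKM after TMM scaling by the authors, has equal batch means for each gene and was used only as an alternative. The submitters' processing notes name CASAVA 1.8.2, R 3.2.2, limma 3.26.9 and GRCh37, while the aligner, counter and annotation are not given in the sources used here. Symbols, positions, exonic GC content and coding sequences came from GENCODE 44 on GRCh38 and were matched by identifier (94% of tested genes), and the identifiers of the other genes stayed unnamed.

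Counts were tested in edgeR 4.0.16 (R 4.3.3) with TMM scaling, filterByExpr (minimum count 10) and the quasi-likelihood F test, with batch as a term, within each batch, and as an interaction, and p-values were adjusted by Benjamini-Hochberg over all tested genes. Standard errors and 95% intervals came from the same fits. The fit was tested on simulated data. Replicate numbers in the labels were checked for pairing: deviations of same-numbered libraries correlated at 0.239, 0.143 and 0.113 in batch 2, so the block was fitted too. In batch 1 the 1 pair of the same number gave 0.113. With 2 libraries of each population there, the size of that value is the same for every pair, so it cannot show pairing. In the block, general batch 1 replicate 1 and HHH batch 1 replicate 3 had no partner and added nothing to the population difference. DESeq2 1.42.0, limma 3.58.1 (voom), other scalings and filters, GC and length trends and left-out libraries were alternatives. A count of 3 in a library, the floor used for depth, corresponds to 0.0460 to 0.0687 CPM, and covers counting error only.

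Named members were those past the adjusted p, up to 6 in each direction of the same sign in both batches by size with at least 1 CPM, the 5 highest in RPKM, those called within a batch or past the interaction, and those with a textbook role. Members and lists were chosen with earlier results of these data known.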

Additional observations from a re-analysis of the deposited data

Results flagged for a closer look

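For 7 members the difference of HHH from general differed between the batches in the interaction test of edgeR. The interaction on the log2 scale, batch 2 minus batch 1, was -1.41 for ZNF579, -1.33 for ZNF865, -1.22 for ZNF628, -1.05 for ZNF837, -0.91 for ZNF358, -0.84 for ZNF787 and -0.81 for ZNF574. All 7 had a higher mean in HHH in batch 1 and a lower one in batch 2. With the GC trend removed, none passed. No library stood apart from its population in any of the 66 sets of 4 to 10 values tested for a named gene, where chance alone would mark about 1 in 20. That check does not measure the hold of a single library on a call. Without general batch 1 replicate 1, only 1 of the 7 interactions was kept.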

How the results depend on the processing

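Over both batches no member was called under any alternative that kept the fold limit, and 2 passed without it. At an adjusted p of 0.05 alone, 6 passed in DESeq2, ZNF823 (0.0422) among them, 5 with the length trend removed and 4 with no filter, ZNF579 (0.0411) and ZNF787 (0.0433) among them, and 3 with the GC trend removed, ZNF787 (0.0245) among them. With a library left out 0 to 7 passed, the 7 without replicate 3 of HHH batch 1. With the GC trend removed 3.42% of all genes rose at that adjusted p. The shares of all genes under DESeq2, the length trend, other scalings and filters and left-out libraries are not given, here or for the counts below. Those counts are therefore not read as a result about the members. In batch 1 alone, 1 was called with the GC trend removed, 0 at an adjusted p of 0.01 and 0 to 3 with a library left out. In batch 2 alone, 0 were called with the GC trend removed, with or without the replicate block, with the length trend removed or at an adjusted p of 0.01, 2 by library size only, 8 without a fold limit and 0 to 1 with a library left out. The interaction was passed by 0 with the GC trend removed, 1 at an adjusted p of 0.01, and 1 to 7 with a library left out. The median of the members was -0.10 over both batches in the deposited log2 values, where that of all genes was -0.12, and in batch 2 it was 0.11 with the length trend removed and -0.029 by library size only. ZNF525 and ZNF799 did not pass in the deposited log2 values (adjusted p 0.523 and 0.357), by library size only (0.0975 and 0.103) or without the batch term (0.195 and 0.206). The causes were not tested.

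Some members with values near 0 changed sign. In the deposited log2 values this gave -0.10 for ZNF224, -0.13 for ZNF274, -0.12 for ZNF574, -0.10 for ZNF649, -0.074 for ZNF724, -0.051 for ZNF837 and -0.042 for ZNF90. The replicate block gave 0.018 for ZNF121, -0.0099 for ZNF274, -0.12 for ZNF574, 0.0012 for ZNF808, -0.11 for ZNF837 and -0.0048 for ZNF865. The length trend gave 0.031 for ZNF121, 0.020 for ZNF587 and 0.016 for ZNF808, and the GC trend 0.028 for ZNF581, or 0.085 with the block. Library size only gave -0.00032 for ZNF224, -0.037 for ZNF274 and -0.014 for ZNF574, upper quartile scaling -0.019 for ZNF274 and -0.0013 for ZNF574, and the 1 CPM filter -0.0073 for ZNF274. With a library left out the values ran from -0.037 to 0.037 for ZNF121, -0.031 to 0.092 for ZNF224, -0.032 to 0.033 for ZNF274, -0.17 to 0.031 for ZNF358, -0.071 to 0.12 for ZNF574, -0.11 to 0.014 for ZNF581, -0.052 to 0.042 for ZNF587, -0.17 to 0.070 for ZNF628, -0.0060 to 0.090 for ZNF649, -0.055 to 0.0069 for ZNF808 and -0.036 to 0.16 for ZNF837. The other values for named members kept their sign. Apart from ZNF799 over both batches and ZNF574, ZNF428, ZNF497 and ZNF607 in batch 2, the replicate block changed no call of a member.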
